A study of Mus musculus with 2 samples.

Results

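Cytosolic ribosomal protein genes were described cell by cell in 5 populations sorted from mouse thymus. Members were the genes whose symbol starts with Rpl or Rps and a digit, plus Rpsa, Rplp0, Rplp1 and Rplp2. The 16 names marked -ps (pseudogenes) and the 8 kinase names starting with Rps6ka or Rps6kb were left out. This gave 89 members among the 27998 genes of the count matrix. Of these, 77 are standard ribosomal proteins, 46 of the large and 31 of the small subunit. Another 9 carry the names of copies or paralogues (Rpl3l, Rpl6l, Rpl7l1, Rpl10l, Rpl22l1, Rpl36al, Rpl39l, Rps27l and Rps27rt), and GENCODE M21 lists Rpl6l as a processed pseudogene, which its name does not show. The other 3 are Rps6kc1, Rps6kl1 and Rps19bp1, which the naming rule takes although they are kinase-like or binding proteins and not parts of the ribosome. The rule misses standard proteins that carry other names, such as Fau and Gnb2l1 (RACK1), which are given separately.

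All cells were primary thymus cells of C57BL/6 mice homozygous for a Bcl11b-YFP allele. Every sort took lineage-negative, viable (7AAD-), Kit+ cells. The 4 gated sorts of early T-cell progenitors (ETPs) also required CD25- and Bcl11b-, and were split as Flt3+ Ly6d- HSA-, Flt3+ HSA+, Flt3- Ly6d- HSA- and Flt3- Ly6d+. HSA is the surface protein encoded by Cd24a. The control sort had no further gate and so also held cells of later stages. Each population was 1 sort with its own hashtag antibody, and all 5 were read in 1 cDNA library. The labels give neither the number of mice nor their age. With 1 sort per population there are no replicates, so no test between populations was possible, no p-value is given, and every interval is a 95% interval that covers counting error only.

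Each ribosome carries 1 copy of nearly every ribosomal protein, and the genes are among the most strongly transcribed of any growing cell. Their mRNAs begin with a run of pyrimidines, the 5′ terminal oligopyrimidine (TOP) motif, through which their translation follows growth signals such as mTOR. Loss of single ribosomal proteins is known to affect blood cell formation, and Rpl22 is known for a role in early T-cell development, where its paralogue Rpl22l1 can take its place in the ribosome.

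The populations held 1412 Flt3+ Ly6d- HSA- cells, 1182 Flt3+ HSA+ cells, 1205 Flt3- Ly6d- HSA- cells, 847 Flt3- Ly6d+ cells and 3302 control cells, with 10616041 to 57199129 UMIs (counted molecules) in all. Median UMIs per cell ran from 9860 in Flt3- Ly6d- HSA- to 21151.5 in Flt3+ HSA+. In counts pooled over whole sorts, depth and sort therefore cannot be told apart. RNA of the gate genes followed the gates: Flt3 RNA was 87.7 and 64.1 CPM (counts per 1000000 UMIs) in the Flt3+ sorts and 23.8 and 14.2 CPM in the Flt3- sorts. Ly6d RNA was 431 CPM in Flt3- Ly6d+ against 11.3 to 17.5 CPM in the other gated sorts. Cells with UMIs of at least 7 of 14 granulocyte markers made up 8.13% of Flt3- Ly6d- HSA-, 4.67% of Flt3+ Ly6d- HSA-, 2.37% of Flt3+ HSA+ and 1.33% of the control, and were 0 of 847 in Flt3- Ly6d+. Cells rich in RNA of G2 and M phase genes made up 50.8% of Flt3+ HSA+ against 6.81% of Flt3- Ly6d- HSA-. Both kinds of cell moved with the ribosomal protein share, as shown further on.

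The members on which the results turn begin as follows in RefSeq's promoter table (GRCm38.p6), which held 68 of the 89 members. Each line gives 10 bases before and 20 bases from the annotated transcription start, with the pyrimidine run in capitals where 6 or more pyrimidines in a row touch the 5 bases on either side of the start. Rps24, Rps27 and Rps9 had the most positive ratios among standard small-subunit members when Flt3- cells were compared with Flt3+ cells, and Rpl14 and Rps2 were among the most negative. Rps27rt is shown as a copy to set against Rps27, and Rpl36al as a start without a run.
Rps24 (chr14:24490668-24490697, + strand): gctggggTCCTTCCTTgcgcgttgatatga
Rps27 (chr3:90213629-90213658, - strand): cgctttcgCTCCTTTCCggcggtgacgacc
Rps27rt (chr9:114982720-114982749, - strand): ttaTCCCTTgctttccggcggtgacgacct
Rps9 (chr7:3704031-3704060, + strand): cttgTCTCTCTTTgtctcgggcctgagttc
Rpl14 (chr9:120571507-120571536, + strand): ggCCCTCTCTCTTCTCgctgagcgccgcca
Rps2 (chr17:24720053-24720082, + strand): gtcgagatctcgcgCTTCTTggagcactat
Fau (chr19:6057937-6057966, + strand): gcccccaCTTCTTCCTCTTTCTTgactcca
Rpl36al (chr12:69184048-69184077, - strand): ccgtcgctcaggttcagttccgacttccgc
For Rps24 the table lists 2 starts, of which the first is shown, and the GENCODE M21 gene (chr14:24487125-24496959) begins upstream of both. A run is seen at the start of genes with positive ratios and of genes with negative ratios, and Rpl36al has none in this window. Its standard partner Rpl36a and the standard member Rpl39 had none either, while the paralogue Rpl22l1 had a run of 10 pyrimidines. Among the standard members, 57 of 77 had a promoter in the table and 29 of these (50.9%) had such a run at a listed start, against 23% of all 27025 genes in it. In the whole window of 300 bases, on either strand and searched one motif at a time, CCGGAAG (an ETS-family core) was found in 24 of the 57 (42.1%) against 9.93% of all genes. GGGCGG (a GC box) was found in 61.4% against 38.2%, AAGATGGC (a YY1 core) in 8.77% against 3.19%, and TATAAA in 10.5% against 15.7%. These letters describe the windows and say nothing of what bound there.

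Ribosomal protein genes gave close to 1 in 3 UMIs in all 4 gated sorts and less in the control. Pooled over cells, they were 32.8% of UMIs in Flt3+ Ly6d- HSA-, 32.2% in Flt3+ HSA+, 33.4% in Flt3- Ly6d- HSA-, 33.4% in Flt3- Ly6d+ and 30.8% in the control. The median cell had 33.7%, 32.7%, 34.0%, 33.6% and 31.2%, in the same order. The cells of a population spread far more widely than counting error: the SD between cells was 3.57 to 6.02 percentage points, while counting alone gives 0.357 to 0.545 points. The ratio of large-subunit to small-subunit UMIs was nearly level, from 1.14 in Flt3- Ly6d+ to 1.15 in Flt3+ Ly6d- HSA-.

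**Figure D1:**
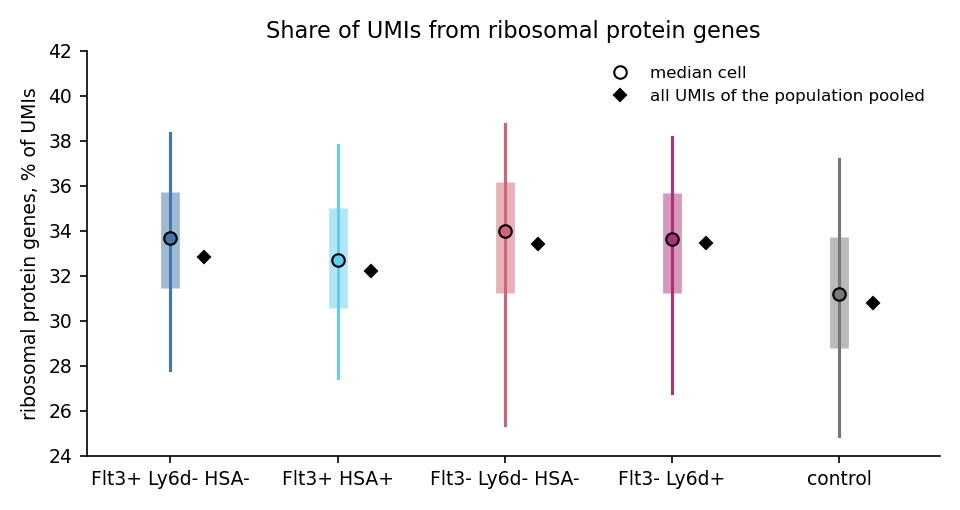
Share of each cell's UMIs from ribosomal protein genes (y axis, percent) in the 5 populations; thin bars run from the 5th to the 95th percentile of cells, thick bars from the 25th to the 75th percentile, circles are median cells and diamonds all UMIs pooled. The bars of all 5 populations overlap widely, and the control's median of 31.2% is the lowest.

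Compared as log2 ratios of pooled shares, Flt3- Ly6d- HSA- stood 0.025 (interval 0.024 to 0.027) above Flt3+ Ly6d- HSA-, but turned negative under 4 of 11 alternatives: -0.021 with TMM factors, -0.018 with DESeq2 size factors, -0.024 with equal weight per cell and -0.021 without cells that had a G2 or M phase UMI. Flt3+ HSA+ stood at -0.028 (interval -0.029 to -0.027) against Flt3+ Ly6d- HSA- and turned to 0.0072 without cells that had a G2 or M phase UMI. Flt3- Ly6d+ did not differ from Flt3- Ly6d- HSA- beyond counting error, at 0.0015 (interval -0.00047 to 0.0035), and the ratio was negative under 9 of 11 alternatives, down to -0.046 in matched cells. The control stood at -0.099 (interval -0.100 to -0.098) against the mean of the 4 gated sorts, or 30.8% against 33.0%, and stayed negative under all 11 alternatives to the scaling or the cells, from -0.15 to -0.082. Among the 11, a filter on hashtag purity kept every cell, so it could change none of the values here or below. A share is relative: these counts do not say how many ribosomal protein mRNAs a cell held.

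Gene by gene, the members moved little in the 4 comparisons. All 77 standard members had a mean of at least 20 CPM over the 5 populations, from 710 CPM for Rpl31 to 8404 CPM for Rpl13 with a median of 4308 CPM, and 67 of the 100 genes with the highest mean CPM in the matrix were members. In all, 83 members reached that minimum. Of these 83, 0 were at least 25% higher or 20% lower (the same ratio turned over) in any of the 4 comparisons. Among all 5508 genes at the minimum, that share was 19.7% for Flt3- Ly6d- HSA- over Flt3+ Ly6d- HSA-, 4.48% for Flt3+ HSA+ over Flt3+ Ly6d- HSA-, 8.28% for Flt3- Ly6d+ over Flt3- Ly6d- HSA- and 13.1% for the control over the mean of the gated sorts. Among the 88 other genes as abundant as the least abundant standard member, the shares were 26.1%, 3.41%, 5.68% and 10.2%. Across all 5 populations, the highest level of a member was a median of 1.11 times its lowest level, against 1.24 times for the 88 other abundant genes and 1.24 times for all 5508 genes.

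**Figure D2:**
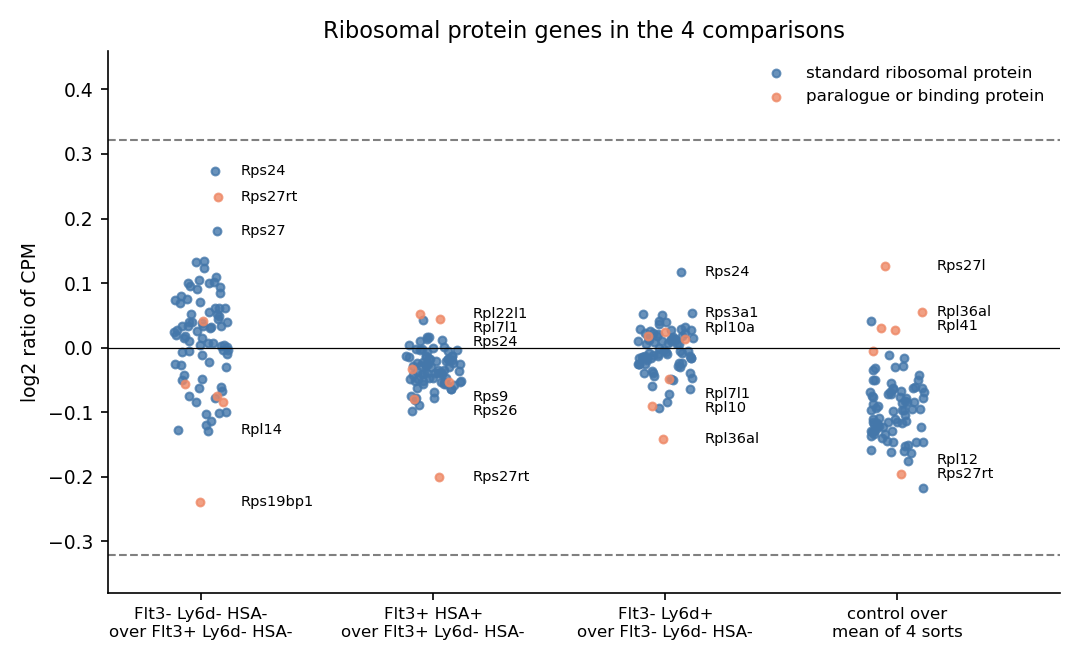
The log2 ratio of CPM (y axis) for each of the 83 members at or above the minimum level in the 4 comparisons (x axis), each point 1 gene; dashed lines mark 25% higher and 20% lower. No member crosses them, Rps24 stands highest for Flt3- Ly6d- HSA- over Flt3+ Ly6d- HSA- at 0.27 and for Flt3- Ly6d+ over Flt3- Ly6d- HSA- at 0.12, and most points of the control lie below 0.

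Rps24, a small-subunit protein known as one of the genes of Diamond-Blackfan anaemia, differed most among the standard members. Its level was 7063 CPM in Flt3+ Ly6d- HSA-, 7279 CPM in Flt3+ HSA+, 8535 CPM in Flt3- Ly6d- HSA-, 9261 CPM in Flt3- Ly6d+ and 7967 CPM in the control. Both Flt3- sorts were above both Flt3+ sorts, with the control between them, and no counting intervals overlapped. The log2 ratio was 0.27 (interval 0.26 to 0.28) for Flt3- Ly6d- HSA- over Flt3+ Ly6d- HSA- and 0.12 (interval 0.11 to 0.13) for Flt3- Ly6d+ over Flt3- Ly6d- HSA-. The sign held in both comparisons under all 11 alternatives, from 0.22 to 0.34 in the first and from 0.017 to 0.12 in the second. Without granulocyte-marker cells the first ratio was 0.34, past the size rule, as was Rps19bp1 at -0.34, so that 2 of 83 members passed, against 29.4% of all genes. The second ratio was 0.017 without them.

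The sorts differ in depth, in cycling cells and in granulocyte-marker cells, so the members were also compared in matched cells, a choice made after seeing the data. Matched cells had from 10000 to under 15000 UMIs, no UMI of 21 G2 and M phase genes among 3000 drawn UMIs, and fewer than 7 granulocyte markers. There were 275, 121, 233, 213 and 504 of them in the order of the sorts above, and their ribosomal protein shares were 35.6%, 35.4%, 36.0%, 34.9% and 33.5%. Among these cells 79 of 83 members lay within 0.1 of 0 on the log2 scale for Flt3- Ly6d- HSA- over Flt3+ Ly6d- HSA-, and 0 passed the size rule, against 14.5% of all genes. In the other 3 comparisons 0 of 83 passed as well, against 14.3% for Flt3+ HSA+ over Flt3+ Ly6d- HSA-, 13.8% for Flt3- Ly6d+ over Flt3- Ly6d- HSA- and 10.3% for the control. Most of the genes behind these shares were far less abundant than the members. Their ratios carry more counting error in so few cells, so the shares are not a like-for-like measure beside the members. Rps24 kept a ratio of 0.22 (interval 0.20 to 0.25), with 8022 CPM in Flt3+ Ly6d- HSA-, 8629 CPM in Flt3+ HSA+, 9355 CPM in Flt3- Ly6d- HSA-, 9792 CPM in Flt3- Ly6d+ and 9383 CPM in the control. It was the member with the highest ratio there, ahead of Rpl22l1 at 0.14 (interval 0.075 to 0.21). In cells with 5 or more G2 and M phase UMIs the same ratio for Rps24 was 0.054 (interval 0.025 to 0.084), over only 79 Flt3- Ly6d- HSA- cells, 25 of which also had the granulocyte markers.

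Of the other standard members with large ratios, Rps27, Rps9, Rps2 and Rpl14 came close to 0 in matched cells, while Rpl39 and Rpl10 kept part of theirs. Rpl39 was at 0.13 in all cells and 0.059 (interval 0.020 to 0.097) in matched cells, and Rpl10 at 0.12 and 0.058 (interval 0.023 to 0.093). Rps27rt turned from 0.23 to -0.12. Rps27 (a zinc-finger protein of the small subunit) was at 1537, 1459, 1742, 1770 and 1472 CPM in the 5 populations, higher in both Flt3- sorts than in the other 3 populations. Its ratio over Flt3+ Ly6d- HSA- was 0.18 in all Flt3- Ly6d- HSA- cells and 0.021 (interval -0.032 to 0.074) in matched cells. Rps9, a protein of the small-subunit body, was at 5772, 5429, 6332, 6425 and 5458 CPM, with the same order of Flt3- above Flt3+. Its ratio was 0.13 in all cells and 0.0059 (interval -0.022 to 0.034) in matched cells. Rps2 and Rpl14 ran the other way. Rps2, near the mRNA entry of the small subunit, was at 7165, 7129, 6594, 6413 and 6504 CPM, its ratio -0.12 in all cells and 0.0092 (interval -0.018 to 0.037) in matched cells. Rpl14, of the large subunit, had a ratio of -0.13 in all cells and -0.00057 in matched cells.

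**Figure D3:**
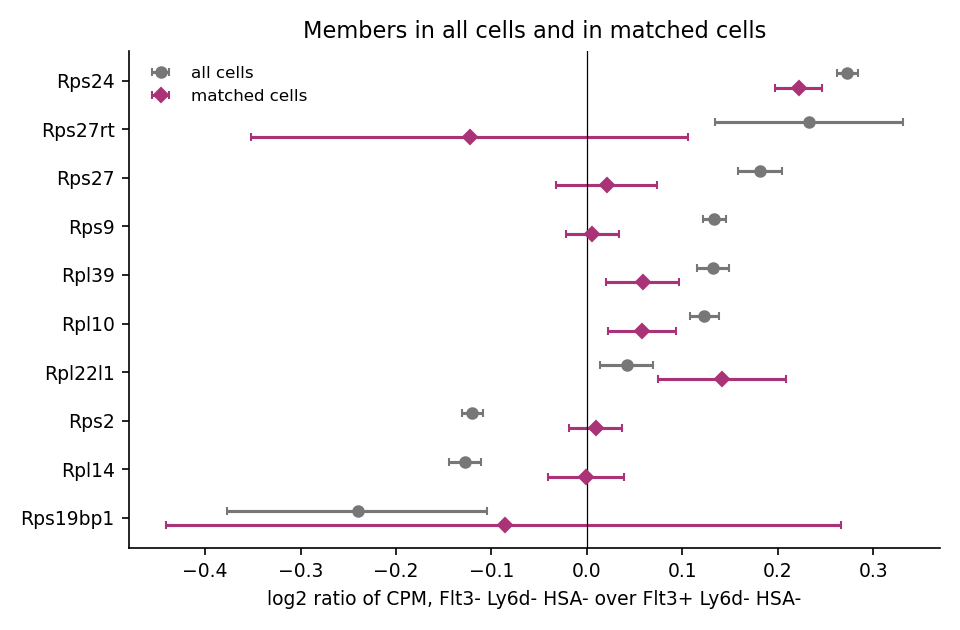
The log2 ratio of CPM for Flt3- Ly6d- HSA- over Flt3+ Ly6d- HSA- (x axis) of selected members; grey circles are all cells, purple diamonds matched cells, bars 95% counting intervals. Rps24 is at 0.27 and 0.22, while Rps27, Rps9, Rps2 and Rpl14 lie near 0 in matched cells and Rpl39 and Rpl10 at 0.059 and 0.058.

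Between the 2 Flt3+ sorts the members moved little and mostly down. For Flt3+ HSA+ over Flt3+ Ly6d- HSA- the median log2 ratio of the 83 members was -0.030 with an SD between genes of 0.035, and 73 of 83 were below 0, while all 5508 genes had a median of -0.0019. This direction was lost in cells with no G2 or M phase UMI and few granulocyte markers, where 37 of 83 were below 0 (median 0.0031). It was also lost in cells with 5 or more G2 and M phase UMIs, with 34 below 0 (median 0.011). In matched cells it was kept but weaker, with 59 below 0 (median -0.012). The lowest ratios were -0.20 for Rps27rt (84.8 CPM in Flt3+ Ly6d- HSA- and 73.7 CPM in Flt3+ HSA+), -0.099 for Rps26, -0.088 for Rps9 and -0.081 for Rpl10, which turned to as much as 0.039 without G2 or M phase cells and in matched cells. The highest were 0.053 for Rpl22l1, 0.044 for Rpl7l1, which turned to as low as -0.15 under the same alternatives, and 0.043 for Rps24. The 21 G2 and M phase genes were all at least 25% higher in Flt3+ HSA+, against 3.49% of all genes, with a median log2 ratio of 0.81. This comparison and the previous one share the Flt3+ Ly6d- HSA- cells.

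Between the 2 Flt3- sorts the median of the members was -0.0054 with an SD of 0.038, against 0.011 for all genes. Apart from Rps24, the highest ratios for Flt3- Ly6d+ over Flt3- Ly6d- HSA- were 0.053 for Rps3a1, 0.052 for Rpl10a and 0.050 for Rps20, of which Rpl10a turned to -0.017 and Rps20 to -0.057 in matched cells. The lowest were -0.14 for Rpl36al, which turned to 0.053 without granulocyte-marker cells, -0.094 for Rpl10, -0.091 for Rpl7l1, which turned to as much as 0.13 under 3 alternatives, and -0.085 for Rps25. In matched cells 72 of 83 members were below 0, with a median of -0.046 and a lowest value of -0.13 for Rpl14.

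In the control nearly all members were somewhat lower. The median log2 ratio over the mean of the gated sorts was -0.096, against 0.043 for all genes, and 78 of 83 members were below 0. Of the 77 standard members, 64 had their lowest level of the 5 populations in the control, against 791 of 5508 genes and 17 of the 88 other abundant genes. Low ratios included -0.20 for Rps27rt, -0.18 for Rpl12 and -0.16 for Rpl22 and Rps21. The ratio of Rps27rt came as close to 0 as -0.0037 under an alternative. Rpl12, of the base of the ribosomal stalk, was at 4490, 4329, 4655, 4557 and 3989 CPM. Its level was lowest in the control, whose counting interval overlapped no other, and its ratio was -0.17 in matched cells. The 5 members above 0 were Rps27l at 0.13, Rpl36al at 0.056, Rpl41 at 0.041, Rps19bp1 at 0.030 and Rpl22l1 at 0.028. Of these, Rpl41, Rps19bp1 and Rpl22l1 turned below 0 with totals that left out ribosomal protein and mitochondrial genes, and Rps19bp1 also in matched cells. The only standard member among the 5 was Rpl41, the shortest ribosomal protein. In matched cells 77 of 83 were below 0, with a median of -0.080.

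The named paralogues were all less abundant than their partners. Rpl22 was at 2139, 2055, 2190, 2125 and 1900 CPM and Rpl22l1 at 1147, 1190, 1180, 1201 and 1202 CPM, so Rpl22 was lowest in the control and Rpl22l1 was not. Against the gated sorts the control had a ratio of -0.16 (interval -0.17 to -0.15) for Rpl22 and 0.028 (interval 0.013 to 0.043) for Rpl22l1. Rpl36a, the standard protein, was at 1931, 1914, 1829, 1843 and 1800 CPM, and its paralogue Rpl36al at 902, 853, 867, 786 and 885 CPM. Rps27l, known as a p53 target, was at 517, 498, 490.2, 496 and 546 CPM, highest in the control. Rpl7l1, a nucleolar paralogue of Rpl7, was at 103, 107, 97.5, 91.6 and 99.4 CPM, and Rpl7 at 3609, 3551, 3580, 3683 and 3414 CPM.

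Rps27rt is a copy of Rps27 without introns. It lies at chr9:114982366-114982739 on the - strand, while Rps27 lies at chr3:90212522-90213651 on the - strand (GENCODE M21, GRCm38). Their coding sequences were identical over 255 bases, and 91.1% of the 50-base words of the annotated Rps27rt transcript also occur in Rps27 transcripts. Reads from the shared sequence therefore cannot be told apart, and the sources used here do not say how they were counted. The 74 to 100 CPM of Rps27rt are uncertain. The levels and ratios given for Rps27 in all passages carry the same limit. None of the 50-base words of Rpl36al or Rpl22l1 occur in their partners' transcripts, whose coding sequences were 87.9% and 66.9% identical to them.

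The 6 members under the minimum were Rpl6l, Rps6kc1, Rpl3l, Rpl39l, Rps6kl1 and Rpl10l. Rpl6l was at 14.7 CPM in Flt3+ Ly6d- HSA- and 13.1 CPM in the control, and Rps6kc1 at 2.19 to 4.05 CPM. Rpl3l, the muscle paralogue of Rpl3, had 5, 7, 4, 6 and 56 UMIs in the 5 populations. Rpl39l, known from the testis, had 16, 7, 2, 6 and 38 UMIs, Rps6kl1 had 2, 2, 0, 2 and 26 UMIs and Rpl10l 1 UMI in all. Within the control, Rpl3l had 20 UMIs in the 589 cells with Bcl11b and Cd3g UMIs and 5 UMIs in the 1112 cells with neither Il2ra nor Bcl11b, a log2 ratio of 2.91 (interval 1.45 to 4.68). Rps19bp1, a nucleolar binding partner of Rps19, was at 55.4, 54.1, 46.9, 47.3 and 52.0 CPM.

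By role, the genes read included those for proteins of the stalk that recruits elongation factors. For Flt3- Ly6d- HSA- over Flt3+ Ly6d- HSA- the log2 ratio was 0.0045 for Rplp0, 0.028 for Rplp2 and -0.10 for Rplp1. The ratio of Rplp1 stayed negative under all 11 alternatives. Rplp0 was at 6238, 6072, 6257, 6356 and 5996 CPM, Rplp1 at 6484, 6372, 6043, 6099 and 5923 CPM and Rplp2 at 2849, 2758, 2905, 2847 and 2678 CPM. All 3 were lowest in the control. Rpl5 and Rpl11, which bind the 5S rRNA and can inhibit Mdm2, were at 2563, 2451, 2582, 2478 and 2323 CPM and at 4687, 4535, 4745, 4661 and 4409 CPM. Rps6, the substrate of the S6 kinases, was at 3984, 3831, 3912, 3943 and 3783 CPM, and Rps19 at 6338, 6383, 6511, 6558 and 5909 CPM. Rps27a, made as a fusion with ubiquitin, was at 6025, 5834, 6036, 5969 and 5578 CPM and Rpsa, near the mRNA exit, at 7709, 7692, 7484, 7511 and 7019 CPM. These 6 genes were likewise lowest in the control. So were Fau and Gnb2l1, which the naming rule misses. Fau was at 3555, 3404, 3878, 3812 and 3357 CPM and Gnb2l1 at 3735, 3701, 3818, 3855 and 3538 CPM.

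Within each population, cells rich in G2 and M phase RNA had a lower ribosomal protein share. In Flt3+ HSA+ the 597 cells with 5 or more such UMIs among 3000 had 31.0% and the 271 cells with none had 35.2%. The same split gave 30.7% and 35.0% in Flt3+ Ly6d- HSA-, 29.7% and 34.5% in Flt3- Ly6d- HSA-, 31.0% and 34.2% in Flt3- Ly6d+, and 28.9% and 32.7% in the control. The cycling cells were deeper, with a median of 25365 against 14609 UMIs in Flt3+ HSA+. Within bins of depth the cycling cells were again lower, in 20 of 20 pairs of population and bin from 5000 UMIs up. Among cells with no such UMI, the control was the lowest population in 4 of 4 bins, at 33.5% against 34.9% to 36.0% from 10000 to under 15000 UMIs.

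**Figure D4:**
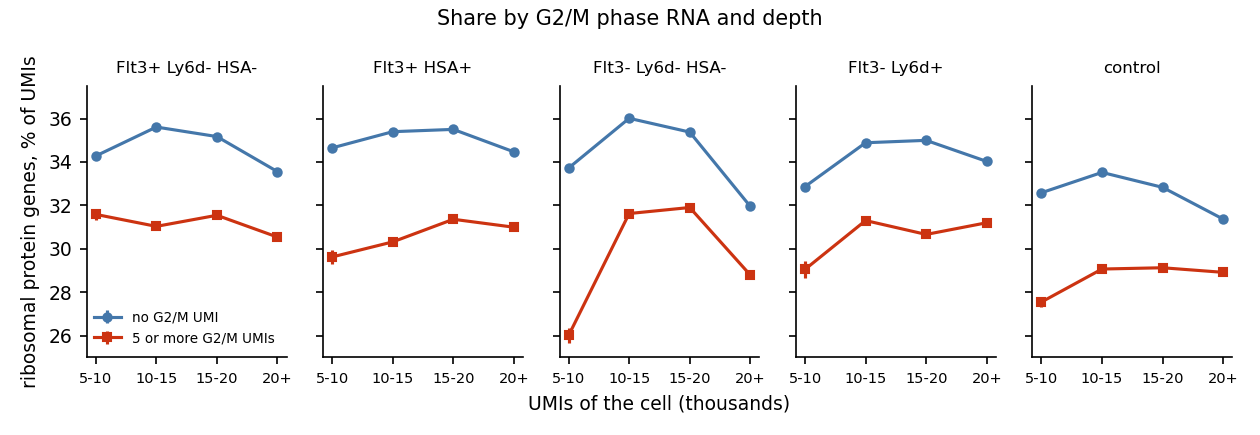
Share of UMIs from ribosomal protein genes (y axis, percent) against the depth of the cell in units of 1000 UMIs (x axis) in the 5 populations; blue circles are cells with no G2 or M phase UMI among 3000, red squares cells with 5 or more, bars 95% counting intervals. The red line lies below the blue line in every panel, and the control's blue line peaks at 33.5%.

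The members did not shift alike in the cycling cells. In Flt3+ HSA+, 6 of 83 members were at least 20% lower, against 13.2% of all genes, and 2 were at least 25% higher, against 16.9%. The 6 were Rps27rt, Rps26, Rps27, Rps9, Rpl17 and Rpl32, and the 2 were Rpl7l1 and Rps19bp1. Rps26 was at 2053 CPM in cycling cells and 2704 CPM in the others, and Rps27 at 1355 and 1774 CPM. Rpl22 was at 1929 and 2365 CPM, a log2 ratio of -0.29 (interval -0.33 to -0.26), while Rpl22l1 was level at 1179 and 1189 CPM, -0.012 (interval -0.058 to 0.034). In Flt3+ Ly6d- HSA- the ratios were -0.31 for Rpl22 and 0.028 for Rpl22l1, so the balance of this pair moved the same way. There 7 of 83 members were at least 20% lower, against 15.4%, and 0 were at least 25% higher, against 19.1%.

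Granulocyte-marker cells also had a lower share, and some members differed in level, though no more often than genes in general. In Flt3- Ly6d- HSA- the 98 cells had 29.8% and the other 1107 cells 34.3%. In Flt3+ Ly6d- HSA- 66 cells had 28.4% against 33.3%, in Flt3+ HSA+ 28 cells had 26.7% against 32.5%, and in the control 44 cells had 28.5% against 30.9%. Their median depth in Flt3- Ly6d- HSA- was 29446 UMIs against 9475 in the other cells. From 20000 UMIs up, where depths were closer, the 80 marker cells of that sort had 29.7% and the 27 others 32.6%. In Flt3- Ly6d- HSA- 17 of 83 members were at least 20% lower, against 32% of all genes, and 6 were at least 25% higher, against 34.9%. Rps27rt, Rps27 and Rps24 had the lowest ratios, with Rps24 at 6067 CPM in marker cells and 9151 CPM in the others, and Rps27 at 1194 and 1879 CPM. Among the 6 higher members were Rpl36al (1305 and 758 CPM), Rpl7l1 (146 and 85.4 CPM), Rps27l (708 and 436 CPM), Rps19bp1 and Rpl31 (842 and 661 CPM). Of these named, Rpl31 is a standard ribosomal protein and the others are not. In Flt3+ Ly6d- HSA- 24 of 83 members were at least 20% lower, against 29.5%, and 4 at least 25% higher, against 28.7%, namely Rpl36al, Rpl7l1, Rps27l and Rps19bp1.

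Within the control the share fell stepwise over cells ordered by RNA of stage genes. It was 32.5% in the 1112 cells with neither Il2ra (CD25) nor Bcl11b, 31.2% in the 766 cells with Il2ra but not Bcl11b, 29.7% in the 835 cells with Bcl11b but not Cd3g, and 28.9% in the 589 cells with Bcl11b and Cd3g. The same order held with stage genes read from 3000 UMIs per cell, at 31.8%, 30.4%, 29.3% and 29.0%. Within depth it held in each bin from 10000 UMIs up, for example 35.1%, 33.2%, 31.0% and 30.5% from 10000 to under 15000 UMIs. From 5000 to under 10000 UMIs the last steps were out of order, at 29.5% with Bcl11b alone and 31.3% with Cd3g.

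**Figure D5:**
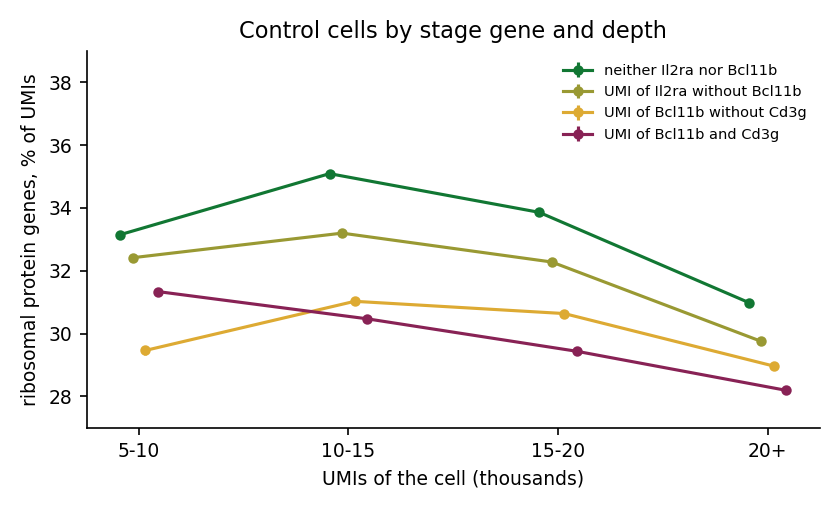
Share of UMIs from ribosomal protein genes (y axis, percent) in control cells against the depth of the cell in units of 1000 UMIs (x axis), by UMIs of the stage genes Il2ra, Bcl11b and Cd3g; points are pooled shares with 95% counting intervals. Cells with neither Il2ra nor Bcl11b lie highest in each bin, at 35.1% from 10000 to under 15000 UMIs, and cells with Bcl11b lowest.

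Between the ends of that order, 2 of 83 members were at least 20% lower in cells with Bcl11b and Cd3g, against 11.7% of all genes, and 0 were at least 25% higher, against 19.8%. One of them was Rps12 (4540.5 and 5735 CPM), a small-subunit protein. The median of the members was -0.18 against 0.075 for all genes. The members that differed least included Rpl36al at 0.066, Rpl41 at 0.020 and Rps27l at -0.0057, and Rps24 was at -0.084.

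The share moved with depth as well, and was low in some shallow cells with much mitochondrial RNA. In all 5 populations the pooled share was highest from 10000 to under 15000 UMIs, at 33.2% to 35.4%, and lower from 20000 UMIs up, at 29.6% to 32.4%. Under 5000 UMIs it was 19.9% to 28.8%. In the 30 Flt3- Ly6d+ cells under 5000 UMIs the median cell had 5.44% ribosomal protein UMIs and 60.2% mitochondrial UMIs. Leaving out cells under 5000 UMIs, a choice made after seeing the data, changed the count of 0 members past the size rule in none of the 4 comparisons.

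Other genes of the translation machinery were read as lists beside the members. Of 37 translation factors, 0 passed the size rule in any of the 4 comparisons, and their medians were -0.094, -0.017, -0.016 and 0.034. Eef1a1, the elongation factor that brings tRNA to the ribosome and itself a TOP mRNA, was at 10171, 10056, 9836, 9926 and 9193 CPM, lowest in the control like most members. Of 29 nucleolar genes that build the ribosome, 7 were at least 20% lower in Flt3- Ly6d- HSA- than in Flt3+ Ly6d- HSA-, against 10.1% of all genes, with a median of -0.22 where the members had 0.024. Among them were Rrp1b at 63.8 and 47.7 CPM and Gnl3 (nucleostemin) at 126 and 97.7 CPM. In the other 3 comparisons 0 of 29 passed. Of 73 mitochondrial ribosomal proteins, 2 (Mrpl37 and Mrpl28) were at least 20% lower in Flt3- Ly6d- HSA- and 2 (Mrpl49 and Mrpl41) at least 25% higher in the control, against 10.1% and 7.01% of all genes, with a median of 0.090 there against -0.096 for the members. Of 6 other TOP mRNAs, Npm1 was at 2973, 2962, 2415, 2375 and 2673 CPM, a ratio of -0.30 for Flt3- Ly6d- HSA- over Flt3+ Ly6d- HSA-, short of the size rule. Vim was at 531, 499, 498, 323 and 337 CPM. It was at least 20% lower in Flt3- Ly6d+ than in Flt3- Ly6d- HSA-, and in the control than in the mean of the gated sorts. Vim was the only 1 of the 6 to pass in each of these, against 8.28% and 13.1% of all genes either way. Among 11 genes that govern ribosomal protein synthesis, Myc was at 82.2, 85.8, 103, 90.2 and 76.8 CPM, at least 25% higher in Flt3- Ly6d- HSA- than in Flt3+ Ly6d- HSA-, and Eif4ebp1, the translation repressor controlled by mTOR, was at 80.6, 75.3, 67.8, 50.6 and 52.3 CPM, at least 20% lower in Flt3- Ly6d+ than in Flt3- Ly6d- HSA-, and in the control than in the mean of the gated sorts. Mycn, a relative of Myc, was at 49.7, 48.4, 46.5, 69.0 and 53.4 CPM, at least 25% higher in Flt3- Ly6d+ than in Flt3- Ly6d- HSA-. Of the 11 genes, 9.09% passed either way for Flt3- Ly6d- HSA- over Flt3+ Ly6d- HSA-, against 19.7% of all genes. For Flt3- Ly6d+ over Flt3- Ly6d- HSA- 18.2% passed, against 8.28%, and for the control 9.09%, against 13.1%.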

How the data were processed

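Single-cell RNA was read with 10x Chromium v3, per the labels' protocols, and processed by the authors with Cell Ranger 3.0 against mm10, per the submitters' processing notes. The deposited matrix holds UMI counts, whole numbers with no normalization, for 8293 barcodes. The authors' deposited assignment put 7948 cells in 5 populations, and the assigned hashtag had the highest deposited count in all 7948. The 345 unassigned barcodes were left out. Doublets were not called, and the sources used here do not say how reads matching several genes were counted. UMI counts were not divided by gene length.

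UMIs were summed per population and scaled to 1000000 (CPM). A member was counted by size, at least 25% higher or 20% lower, among genes with a mean of at least 20 CPM over the 5 populations. Intervals (95%) came from splitting the summed counts binomially, for the control from a log-normal form, and for shares from the exact binomial, and cover counting error only. Cells were thinned to 3000 UMIs for G2 and M phase classes, which left out 6 to 52 shallower cells per population. The calculation was tested on simulated data. Alternatives were TMM factors (edgeR), DESeq2 size factors, totals without ribosomal protein and mitochondrial genes, equal weight per cell, filters on cells and no filter on low values. No count test was run, since each population is 1 sort.

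Genes named were the 4 highest and 4 lowest ratios per comparison, all names that are not standard proteins, their partners, and a list by role. Others named within classes of cells were chosen after their values were seen. Some results that the rule would name are not reported here. Members and lists were chosen with earlier results of these data known. Python 3.11.15, numpy 2.4.6, scipy 1.17.1, edgeR 4.0.16, DESeq2 1.42.0 and Biopython 1.88 were used.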

Additional observations from a re-analysis of the deposited data

How the results depend on the processing

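No paired analysis was possible because each population is 1 sort. The log2 ratio of the ribosomal protein share of Flt3- Ly6d- HSA- over Flt3+ Ly6d- HSA- (0.025) became -0.021 with TMM factors, -0.018 with DESeq2 size factors, -0.024 with equal weight per cell and -0.021 without cells with a G2 or M phase UMI. It was 0.053 with totals without ribosomal protein and mitochondrial genes, 0.030 with a filter on genes and mitochondrial share per cell, 0.041 without granulocyte-marker cells, 0.032 without the deepest 5% of cells, 0.032 for cells of at least 5000 UMIs and 0.017 in matched cells. For Flt3+ HSA+ over Flt3+ Ly6d- HSA- (-0.028) the share ratio was, in the same order and where it moved beyond its counting interval, -0.0074, -0.010, -0.033, 0.0072, -0.043, -0.036 without granulocyte-marker cells, -0.034 without the deepest cells and -0.0087 in matched cells. For Flt3- Ly6d+ over Flt3- Ly6d- HSA- (0.0015) it was -0.018, -0.00098, -0.0035, -0.013, 0.0054, -0.00072, -0.036, -0.021, -0.0022 and -0.046 in the order of the first comparison. For the control (-0.099) it was -0.10 with TMM factors, -0.12 with DESeq2 size factors, -0.089 with equal weight, -0.086 without G2 or M phase cells, -0.15 with the reduced totals, -0.11 without granulocyte-marker cells, -0.11 without the deepest cells and -0.082 in matched cells. The cause of these moves was not tested.

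The count of members past the size rule stayed at 0 in all 4 comparisons except in the first without granulocyte-marker cells (2) and with no filter on low values (2, 2, 3 and 3, among members under the minimum only). Of 3784 values of single genes under an alternative, 2123 stayed within the counting interval and 1661 did not. The limits of 5000 UMIs and the matched cells were chosen after seeing the data. A filter on hashtag purity removed 0 cells, so the values under it, all counted among the 2123, could not move. Depth limits the least abundant members: Rpl10l had 1 UMI in all populations.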

Other observations

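The 345 barcodes that the authors' assignment put in no population had 31.7% of their UMIs from ribosomal protein genes and a median of 29414 UMIs per barcode, and entered no comparison.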
